A study of Homo sapiens with 38 samples.

Results

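The Sp1 IDR–CTCF DBD chimera joins the long intrinsically disordered region (IDR) of the transcription factor Sp1 to the zinc finger DNA binding domain (DBD) of CTCF. Its chromatin sites were compared with those of the CTCF DBD alone, which asks what the added Sp1 IDR changed in where the same fingers were mapped. The members are all peaks in the mouse anti-FLAG CUT&RUN lists of these lines, 166 for the chimera and 649 for the CTCF DBD, or 815 of the 27085 peaks in the 19 lists of the series. CUT&RUN uses an antibody to bring a nuclease to a tagged protein and sequences the DNA released around it. All lines were U2OS osteosarcoma cells in which endogenous Sp1 carries V5 and Halo tags, from 1 knock-in clone. Each construct was a SNAPf- and FLAG-tagged transgene with nuclear localization signals, driven by doxycycline from the AAVS1 safe harbor locus. Cells were treated with doxycycline at 1 μg/ml for 36 h, sorted for transgene expression, and cultured with it for another 36 h. The control lists came from the parental knock-in line without a construct, with 22 peaks, and from a line expressing SNAP-NLS, a tag with no DBD, with 295 peaks, both with mouse anti-FLAG. Each list was made by the authors from 2 biological replicates and holds peaks with an irreproducible discovery rate of at most 0.1, called the IDR threshold below to keep it apart from the disordered region, so a list has no replicates of its own. The depth behind the lists is unknown here, and a p-value over peaks compares lists of sites, not cultures.

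CTCF reads a long DNA element with an array of zinc fingers, and with the cohesin ring it sets the ends of many chromatin loops. Sp1 has a shorter finger array that recognizes GC boxes, which are common in the promoters of housekeeping genes, and its IDR is rich in glutamine and was first described as a transactivation domain. The chimera does not carry the Sp1 fingers, while endogenous V5-Halo-Sp1, which does, was present in every line.

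The sequences below show the element that the fingers are known for, as it occurs in peaks of this comparison. Capitals mark the CTCF core, the 12-letter consensus searched on both strands, written 5′ to 3′ on the strand that holds it, with 9 bases to either side (hg38). The first 5 are the shared chimera peaks outside repeated sequence with the core within 100 bp of the summit, chosen for printing after their values were seen, and they leave out 1 such peak. The other 5 are in named peaks or, for ESYT1, in the chimera peak outside repeated sequence that was not shared and had the core within 100 bp of its summit.
TPR, chr1:186375606-186375635, plus strand: gacactgagCCACTAGAGGGCatcggtccc
SSH2, chr17:29931523-29931552, minus strand: tcctgatcaCCACCAGGGGGCaaaagccta
CXXC1, chr18:50287759-50287788, plus strand: cgctgcaaaCCAGTAGGTGGCcggcctaga
CEACAM7, chr19:41706817-41706846, plus strand: ccctcctgtCCACCAGAGGGCggcagagtt
ANKRD53, chr2:70977543-70977572, minus strand: cggacagggCCACCAGAGGGCtccttgatc
TBC1D2B, chr15:77910551-77910580, plus strand: tggctctggCCACTAGGGGGCagggccatg
ESYT1, chr12:56126333-56126362, plus strand: tgcttatcaCCACCAGGTGGCacctgggca
SLC17A7, chr19:49443908-49443937, minus strand: gcgccgtgtCCACCAGAGGGCgcaaccttt
NXPH3, chr17:49570170-49570199, plus strand: cccgagtgcCCACCAGGTGGCgcgctgacg
GABRR3, chr3:98039481-98039510, plus strand: ctagagcagCCAGTAGGGGGCatttgctat
Each name is the protein-coding gene with the nearest start. The TPR, CXXC1 and ESYT1 sites lie in annotated exons and the others do not. At CEACAM7 the last letters of the core are also the first of a GC box, so the elements can overlap.

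The GC box of the Sp1 fingers, GGGCGG on either strand, is shown in capitals for 3 chimera peaks that were not shared with the CTCF DBD, each written on the strand that holds the box nearest to the summit.
IDH1, chr2:208254678-208254707, minus strand: gagggagaaactGGGCGGtgaggaagttgg
ENSG00000124593, chr6:41780089-41780118, plus strand: ccggaggggacaGGGCGGagcctgcggcgg
CTCF, chr16:67562452-67562481, minus strand: gggggaccggccGGGCGGcgagtagagggc
The IDH1 and ENSG00000124593 boxes lie within 100 bp of the summit, and the CTCF box lies farther away in the peak. Strong peaks could also hold neither element around the summit, and 1 of each kind is given over 121 bases on the plus strand, with no capitals because neither motif occurs in it.
PPRC1, chr10:102132713-102132833, shared: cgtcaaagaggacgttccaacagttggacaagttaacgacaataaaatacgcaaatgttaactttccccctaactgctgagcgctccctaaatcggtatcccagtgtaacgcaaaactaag
LZTS2, chr10:101013115-101013235, CTCF DBD only: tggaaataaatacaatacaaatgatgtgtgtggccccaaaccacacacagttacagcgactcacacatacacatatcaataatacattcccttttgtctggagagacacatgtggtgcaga

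Most chimera peaks lay where the CTCF DBD alone had a peak, and the CTCF DBD had many more peaks besides. Of the 166 chimera peaks, 119 (71.7%, 95% Wilson interval 64.4 to 78.0%) shared at least 1 bp with a CTCF DBD peak, while 120 of the 649 CTCF DBD peaks (18.5%, 15.7 to 21.7%) overlapped the chimera. That leaves 47 chimera peaks and 529 CTCF DBD peaks that were not shared. The intervals cover counting error over peaks only. With peaks over the control lists and in repeated sequence left out, 90 of 120 chimera peaks (75%, 66.6 to 81.9%) and 91 of 521 CTCF DBD peaks (17.5%, 14.4 to 20.96%) were shared.

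Shared sites made up a larger share of the strongest CTCF DBD peaks than of the weakest, although they ran from rank 2 to rank 627 of that list. The lists were divided into 4 rank groups by the −log10 p of the merged peak. The strongest group of the CTCF DBD list had 61 of 163 peaks (37.4%, 30.4 to 45.1%) over the chimera, the next groups 27 of 162 (16.7%) and 17 of 162 (10.5%), and the weakest 15 of 162 (9.26%, 5.69 to 14.7%). Recovery was more frequent in the strongest group than in the weakest, with an odds ratio of 5.86 (Fisher's exact p = 1.48e-09, two-sided, and 1.92e-08 after Benjamini-Hochberg adjustment over 13 tests). In the chimera list the share ran from 35 of 42 peaks (83.3%, 69.4 to 91.7%) in the strongest group to 26 of 41 (63.4%, 48.1 to 76.4%) in the weakest, with intervals that overlap, and this difference was not tested. Of the 20 highest ranked peaks, 18 in the chimera list and 14 in the CTCF DBD list were shared. Reducing the CTCF DBD list to its 166 highest ranked peaks, the length of the chimera list, left 36.7% of either list shared.

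**Figure D1:**
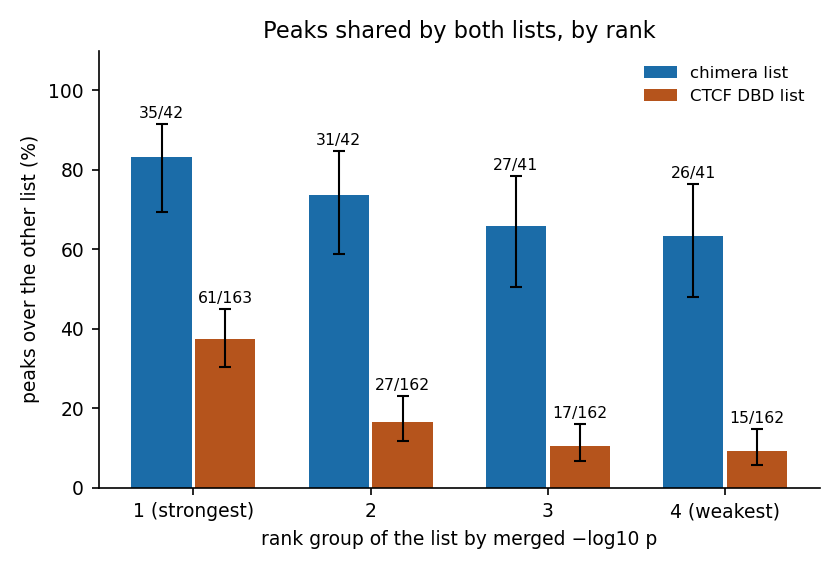
Share of peaks that overlap the other list (y axis, percent, bars with 95% Wilson intervals), by rank group of each list, set by merged −log10 p (x axis), for the chimera list (blue) and the CTCF DBD list (orange), with peak counts above the bars. The CTCF DBD bars fall from 37.4% to 9.26% and the chimera bars from 83.3% to 63.4%.

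The values of the individual replicates show how evenly each list was supported. In the chimera list the first replicate value, a −log10 p, had a median of 13 and a range of 9.45 to 56.5, and the second a median of 14.5 and a range of 10.2 to 34.1. In the CTCF DBD list the first value had a median of 10.2 (6.95 to 33.2) and the second a median of 17.5 (11.2 to 65.6). The second value was the higher in 106 of 166 chimera peaks (63.9%) and in 625 of 649 CTCF DBD peaks (96.3%), nearly the whole list. A −log10 p grows with read depth, which was not analysed, so these values were not compared in size between lists. For the same reason, the gap between the CTCF DBD replicates is not read as a difference in binding. Shared CTCF DBD peaks had a median of 12.5 in the first and 22.9 in the second replicate, against 9.94 and 16.9 for those not shared, with wide overlap between the classes. The same values for the chimera were 13.2 and 15.3 for shared peaks and 12.6 and 13.2 for those not shared. Across peaks, the replicate values had a Spearman rho of 0.41 over the 120 shared CTCF DBD peaks and 0.26 over the 529 others, and of 0.12 over the 119 shared and 0.10 over the 47 other chimera peaks. These points share libraries and were selected for agreement between replicates, so the correlations are descriptions.

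**Figure D2:**
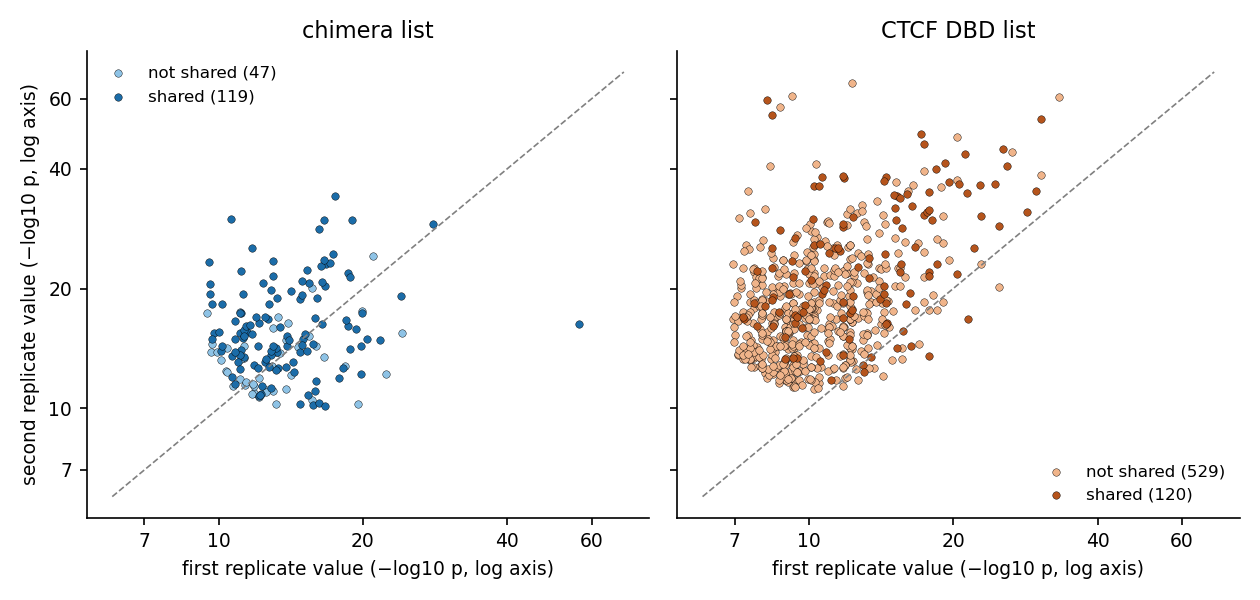
First (x axis) against second replicate value (y axis), both −log10 p on log axes, for every peak of the chimera list (left) and the CTCF DBD list (right), with shared peaks dark, peaks not shared light, and equality dashed. Nearly all CTCF DBD points (625 of 649) lie above the line, against 106 of 166 chimera points.

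Where the constructs shared a site, the summits nearly coincided. The 120 overlapping pairs had a median summit distance of 24 bp (quartiles 11.8 and 63.5 bp, highest 1222 bp), and 100 of them lay within 100 bp. The chimera's peaks in these pairs had a median width of 647 bp and the CTCF DBD peaks one of 639 bp, and the CTCF DBD peak was the wider in 68 pairs and the chimera peak in 52. By class, the median width was 645 bp for shared and 553 bp for other chimera peaks, and 639 bp for shared and 570 bp for other CTCF DBD peaks. Rank was kept only loosely, with a Spearman rho of 0.29 between the ranks of the 120 pairs, given as a description over peaks that share 4 libraries. A chimera peak not shared lay a median of 602384 bp from the nearest CTCF DBD peak on its sequence (46 of the 47 could be measured), and 5 lay within 5000 bp of one.

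**Figure D3:**
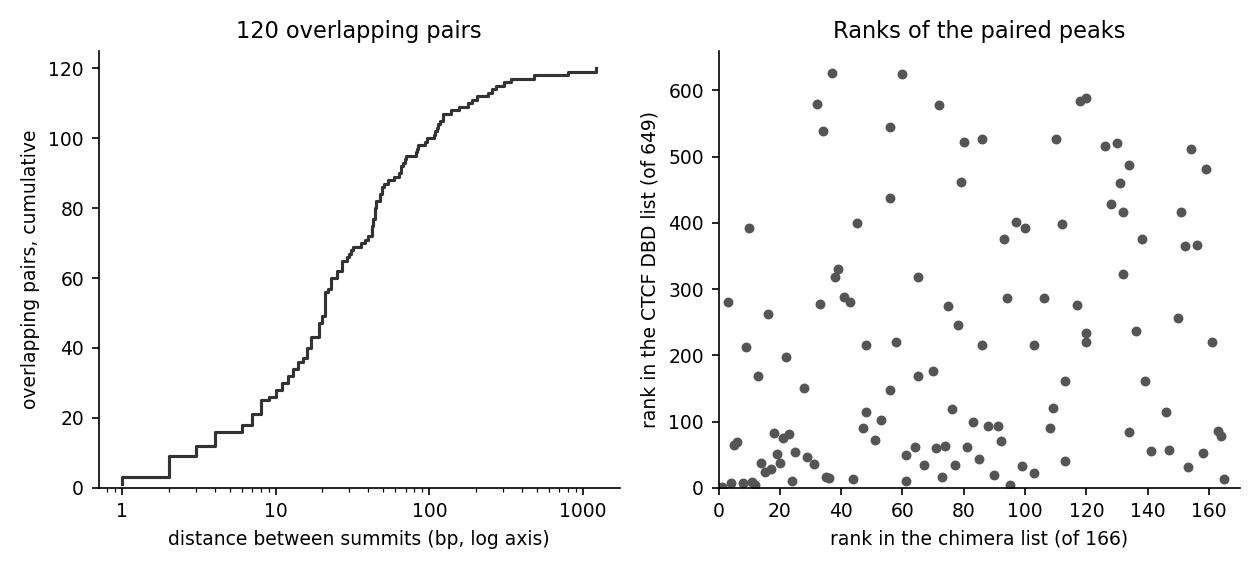
Left, cumulative number of the 120 overlapping pairs (y axis) by distance between summits (x axis, bp, log axis), with 100 pairs within 100 bp. Right, rank of each pair in the chimera list (x axis, of 166) and in the CTCF DBD list (y axis, of 649), which scatter widely.

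Peaks that FLAG antibody or tag alone could give were counted apart. None of the 166 chimera peaks or of the 649 CTCF DBD peaks lay over the parental list. That list has only 22 peaks, and the peaks were called against merged control replicates whose samples are not identified here. The calling itself may therefore have favored a count of 0, which says little about background from the antibody. A count of 0 allows shares of up to 1.81% and 0.462% when the limit is set at 3 counts, and of up to 2.26% and 0.588% by the Wilson bound. The SNAP-NLS list overlapped 21 chimera peaks (12.7%, 8.43 to 18.6%) and 36 CTCF DBD peaks (5.55%, 4.03 to 7.58%), of which 20 and 35 were in repeated sequence. A peak was called repeated when at least 50% of the 31-base words within 100 bp of its summit occur more than once in the reference. Control peaks made up 10 of the 47 chimera peaks not shared (21.3%, 11.99 to 34.9%) and 25 of the 529 CTCF DBD peaks not shared (4.73%, 3.22 to 6.88%), a difference past the threshold (Fisher's exact, odds ratio 5.45, p = 0.000197, adjusted p = 0.00128). Leaving out repeated sequence ended that call (3.13% of 32 against 0.231% of 432, Fisher's exact adjusted p = 0.209), as did a stricter IDR threshold of 0.05 (adjusted p = 0.253), lists of equal length (0.101) and chromosomes 1 to 22 and X alone (0.0590). Repeated sequence held 16 chimera peaks not shared (34.04%) and 98 CTCF DBD peaks not shared (18.5%; Fisher's exact p = 0.0200, adjusted p = 0.0520). Among CTCF DBD peaks, 29 of the 120 shared (24.2%) and 98 of the 529 others were repeated (Fisher's exact adjusted p = 0.192), and 11 (9.17%) and 25 lay over the controls (adjusted p = 0.135).

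Most peaks of both constructs lay near a transcription start when genes of every type were counted. A transcription start of GENCODE 44 lay within 1000 bp of the summit for 103 chimera peaks (62.0%, 54.5 to 69.1%) and 358 CTCF DBD peaks (55.2%, 51.3 to 58.9%). By class the share was 77 of 119 shared chimera peaks (64.7%), 26 of 47 others (55.3%), 77 of 120 shared CTCF DBD peaks (64.2%) and 281 of 529 others (53.1%). The shared and other CTCF DBD peaks did not differ past the threshold after adjustment (Fisher's exact, odds ratio 1.58, p = 0.0326, adjusted p = 0.0706). They did so without control peaks (70.6% of 109 against 55.8% of 504, Fisher's exact adjusted p = 0.0189) and without repeated sequence (75.6% of 90 against 61.1% of 432, adjusted p = 0.0409). The peaks not shared of the chimera and of the CTCF DBD gave an odds ratio of 1.09 (Fisher's exact adjusted p = 0.913). Without control peaks this ratio was 1.88 (70.3% of 37 against 55.8% of 504, Fisher's exact adjusted p = 0.122). Without repeated sequence it was 2.76 (81.25% of 32 against 61.1% of 432, Fisher's exact adjusted p = 0.0632). Neither passed the threshold, but the ratio did not stay near 1 at these settings. Introns held 9 of the 47 chimera peaks not shared (19.1%, 10.4 to 32.5%) and 188 of the 529 CTCF DBD peaks not shared (35.5%, 31.6 to 39.7%), with exons at 15 (31.9%) and 131 (24.8%), and no test was made.

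Sites of full-length Sp1 were more frequent among chimera peaks not shared than among CTCF DBD peaks not shared. A Sp1 WT FLAG peak overlapped 24 of the 47 chimera peaks not shared (51.1%, 37.2 to 64.7%) and 151 of the 529 CTCF DBD peaks not shared (28.5%, 24.9 to 32.5%), and the difference passed the test (Fisher's exact, odds ratio 2.61, p = 0.00249, adjusted p = 0.0108). The shared chimera peaks lay over Sp1 WT in 49 of 119 cases (41.2%, 32.7 to 50.2%), with an interval that overlaps that of the chimera peaks not shared, and these groups were not tested against each other. Shared CTCF DBD peaks lay over Sp1 WT in 49 of 120 cases (40.8%, 32.5 to 49.8%), more often than the others (odds ratio 1.73, Fisher's exact p = 0.0115, adjusted p = 0.0375). The first call did not hold at every setting, and the second held at none that changed the peaks compared. The first was lost at an IDR threshold of 0.05 (54.2% of 24 against 30.6%, Fisher's exact adjusted p = 0.0971), with lists of equal length (49.5% of 105 against 33.3%, 0.101) and on chromosomes 1 to 22 and X (48.8% of 43 against 28.3%, 0.0549), in each case with the same direction. The second was lost at those settings, without control peaks (Fisher's exact adjusted p = 0.0500428) and without repeated sequence (0.0632). It stayed only when an overlap of 50% of the shorter peak was asked for, which left the same counts. With lists of equal length, shared and other CTCF DBD peaks had nearly the same share over Sp1 WT (34.4% and 33.3%, odds ratio 1.05). Outside the control lists and repeated sequence, 18 of 30 chimera peaks not shared (60%, 42.3 to 75.4%) and 130 of 430 CTCF DBD peaks not shared (30.2%, 26.1 to 34.7%) lay over Sp1 WT.

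Overlaps with other lists of the series were counted too. The lists differ in length, with 5151 peaks for Sp1 WT and 3277 for the Sp1 DBD, and no background share over them was counted. Shares over different lists are therefore not a measure of how much Sp1 the sites carry. The Sp1 DBD alone, which has the Sp1 fingers without the IDR, overlapped 57 chimera peaks (34.3%) and 141 CTCF DBD peaks (21.7%), and the EWS IDR-Sp1 DBD chimera 50 (30.1%) and 113 (17.4%). Endogenous Sp1 in parental cells, mapped with rabbit anti-V5, overlapped 29 chimera peaks (17.5%) and 68 CTCF DBD peaks (10.5%). Mapped with mouse anti-V5 in the same cells, it overlapped 31 (18.7%) and 61 (9.40%). In cells expressing Sp1 IDR-LacI, the rabbit and mouse anti-V5 lists overlapped 34 (20.5%) and 36 (21.7%) chimera peaks. In the cells expressing the chimera, the rabbit anti-V5 list overlapped 39 chimera peaks (23.5%, 17.7 to 30.5%) and 77 CTCF DBD peaks (11.9%, 9.60 to 14.6%), and the mouse anti-V5 list 32 (19.3%) and 50 (7.70%). Differences between lines in these anti-V5 overlaps were not tested. Of the chimera peaks over Sp1 WT, 59 of 73 (80.8%) were at a transcription start, against 44 of the 93 that were not over it (47.3%). For the CTCF DBD these shares were 163 of 200 (81.5%) and 195 of 449 (43.4%). Promoter position and Sp1 overlap thus moved together in both lists, and their separate parts were not tested.

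**Figure D4:**
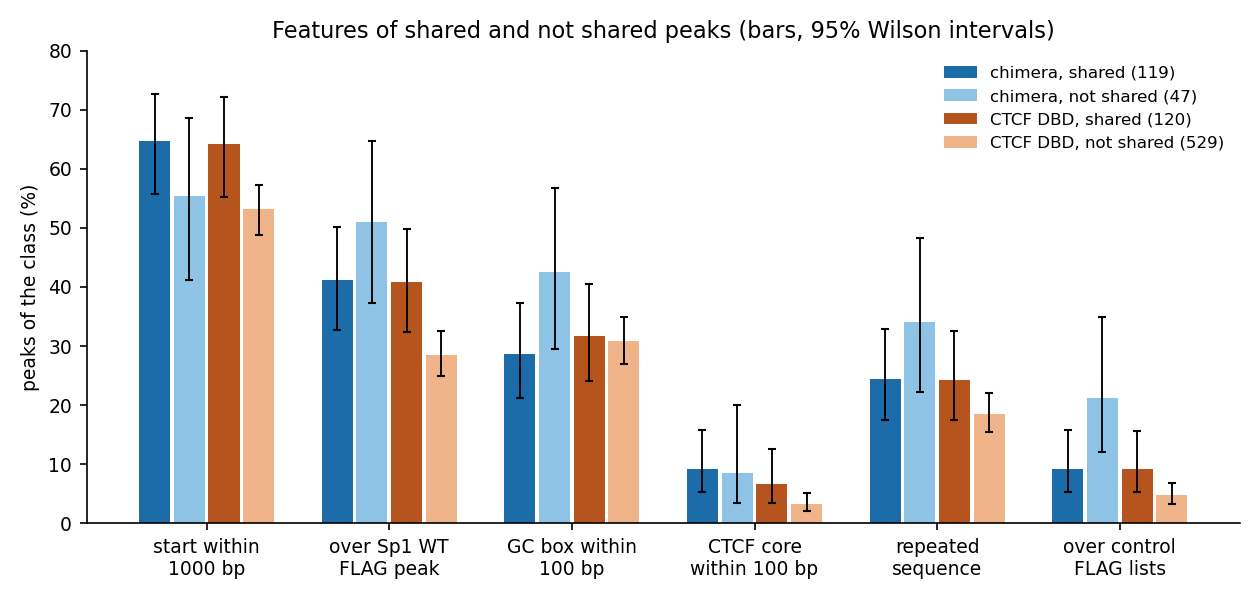
Share of peaks (y axis, percent, bars with 95% Wilson intervals) with each of 6 features (x axis) in the 119 shared and 47 other chimera peaks (dark and light blue) and the 120 shared and 529 other CTCF DBD peaks (dark and light orange). The light blue bars stand at 51.1% for Sp1 WT and 21.3% for the control lists, against 28.5% and 4.73% for the light orange bars.

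The CTCF core was in a minority of peaks of every class. Anywhere in the peak, it was in 29 chimera peaks (17.5%, 12.4 to 24.0%) and 90 CTCF DBD peaks (13.9%, 11.4 to 16.7%). In these peaks the nearest core lay a median of 82 and 117 bp from the summit, so a 100 bp limit misses many. Within 100 bp of the summit, the core was in 15 chimera peaks (9.04%, 5.55 to 14.4%) and 25 CTCF DBD peaks (3.85%, 2.62 to 5.62%). Windows 2000 bp away held it in 0.606% and 0.232%, and windows of the same 201 bp at all 20046 protein-coding starts in 0.359%. By class the counts were 11 of 119 shared chimera peaks (9.24%), 4 of 47 others (8.51%, 3.36 to 19.9%), 8 of 120 shared CTCF DBD peaks (6.67%) and 17 of 529 others (3.21%, 2.02 to 5.09%). Neither planned difference passed the test (Fisher's exact, adjusted p = 0.142 for shared against other CTCF DBD peaks and 0.135 for the chimera against the CTCF DBD among peaks not shared). With the core anywhere in the peak, neither passed (odds ratios 1.41 and 1.17, Fisher's exact adjusted p = 0.309 and 0.712, in the same order). The outcome depended on the form of the motif. The 7-letter part of the core (on either strand, AGAGGGC and its variant AGATGGC, or with a guanine at the third letter AGGGGGC and its variant AGGTGGC, in 25.3% of promoter windows and always present inside the core) was in 33.3% of shared and 21.6% of other CTCF DBD peaks (odds ratio 1.82, Fisher's exact adjusted p = 0.0282). Within 50 bp of the summit, the full core was in 4 of 47 chimera and 4 of 529 CTCF DBD peaks that were not shared (odds ratio 12.2, Fisher's exact adjusted p = 0.00808), and 3 of those 4 chimera peaks were in repeated sequence.

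Some of these cores lay in repeated sequence, in part near chromosome ends. Of the 15 chimera peaks with the core near the summit, 8 were in repeated sequence, and the gene nearest to 3 of them was a DDX11L pseudogene, a family of duplicated copies found mostly near chromosome ends. For the CTCF DBD, 7 of 25 were repeated and 4 lay nearest to a DDX11L copy. In a count chosen after the values were seen, 10 of 159 chimera peaks (6.29%, 3.45 to 11.2%) and 15 of 633 CTCF DBD peaks (2.37%, 1.44 to 3.87%) on assembled chromosomes lay within 1000000 bp of a chromosome end, with no test. All 10 of the chimera and 11 of the 15 were repeated, and 7 in either list held the core somewhere in the peak. Which copy of such a sequence was bound cannot be told from these lists. Outside repeated sequence the core near the summit was left in 7 chimera and 18 CTCF DBD peaks, and 5 of those 18 were shared.

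The GC box, the element of the fingers that the chimera lacks, was in 54 chimera peaks (32.5%, 25.9 to 39.98%) and 201 CTCF DBD peaks (30.97%, 27.5 to 34.6%) within 100 bp of the summit, against 6.36% and 7.27% of windows 2000 bp away and 46.9% of protein-coding starts. It was in 20 of 47 chimera peaks not shared (42.6%, 29.5 to 56.7%) and 163 of 529 CTCF DBD peaks not shared (30.8%, 27.03 to 34.9%; Fisher's exact, odds ratio 1.66, adjusted p = 0.142). Without control peaks the same difference passed (54.1% of 37 against 32.3% of 504, odds ratio 2.46, Fisher's exact adjusted p = 0.0298). Shared and other CTCF DBD peaks had it in 31.7% and 30.8% (odds ratio 1.04, Fisher's exact adjusted p = 0.913). Over Sp1 WT the box was in 14 of the 24 chimera peaks not shared (58.3%, 38.8 to 75.5%), and away from Sp1 WT in 6 of 23 (26.1%, 12.5 to 46.5%). The CTCF DBD peaks not shared showed the same pattern, with 75 of 151 (49.7%, 41.8 to 57.6%) and 88 of 378 (23.3%, 19.3 to 27.8%). Core and GC box occurred together in 5 chimera and 6 CTCF DBD windows.

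The strongest shared sites outside control lists and repeated sequence lay mostly at promoters of genes with varied roles. The first ranked chimera peak, chr15:77910052-77910945, was intergenic, 88701 bp from the start of TBC1D2B, a Rab GTPase-activating protein, with replicate values of 27.98 and 29.0, and its partner was second of the CTCF DBD list with 30.5 and 53.4. The summits of this pair differed by a single base (77910680 and 77910681), and the core printed above lay 114 bp from the chimera summit. At ZNF808, a KRAB zinc finger gene, the chimera peak chr19:52527072-52527639 (rank 8, 17.5 and 34.1) and the CTCF DBD peak (rank 8, 25.4 and 44.7) had summits that differed by a single base, the former 279 bp from the start, and the chimera peak also lay over Sp1 WT and all 4 anti-V5 lists of the parental and the chimera line. ZFP91, a zinc finger ubiquitin ligase gene, had a chimera peak of rank 4 (19.01 and 29.8). Its partner in the CTCF DBD list had rank 7 (25.9 and 40.7). The nearest start, 702 bp from the chimera summit, was that of the readthrough gene ZFP91-CNTF, and a start of ZFP91 also lay within 1000 bp.

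The ranks of the other shared peaks are places in lists of 166 and 649 peaks, so a larger rank in the longer list is not by itself a weaker place. The promoter of NBN, a subunit of the DNA break repair complex with MRE11 and RAD50, had the third chimera peak (24.0 and 19.1) with 2 cores, and rank 281 in the CTCF DBD list (10.7 and 38.0). TMBIM6, an inhibitor of cell death in the endoplasmic reticulum, ranked 10 for the chimera (17.3 and 24.4) and 393 for the CTCF DBD (9.43 and 16.95). RFFL, an E3 ubiquitin ligase, ranked 5 and 64, and PPRC1, a coactivator of mitochondrial gene expression, 6 and 69. At PPRC1 the chimera values were 18.6 and 21.9 and the CTCF DBD values 15.3 and 34.1. A peak 27030 bp from the start of NELL2, a secreted glycoprotein of neurons, ranked 14 and 37, and one 140 bp from the pseudogene C2orf69P1 on chromosome 16 ranked 15 and 24. Of these 10 shared peaks, 8 lay within 1000 bp of a start, 4 over Sp1 WT, 4 held a GC box near the summit and 2 a core in the peak.

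Outside control lists and repeated sequence, the 10 strongest chimera peaks that the CTCF DBD did not have ranked from 26 to 69, and 8 of the 10 lay over Sp1 WT and 8 at a transcription start. One was at the gene CTCF itself, chr16:67562029-67562884, with the summit 4 bp from the transcription start, values of 18.4 and 12.8, and an overlap with Sp1 WT and all 4 of those anti-V5 lists. No peak of either list had its summit in PPP1R12C, the gene that holds AAVS1, or in SP1. USP5, a deubiquitinase, had a peak 300 bp from its start (rank 46, 13.97 and 16.4) with the same overlaps. IDH1, the cytosolic isocitrate dehydrogenase, had one 144 bp from its start (rank 50, 13.8 and 14.8), over Sp1 WT and the mouse anti-V5 list of parental cells. The highest ranked of these 10 peaks (rank 26, 15.7 and 20.0) lay 451 bp from the start of THEM6. Its summit was in an exon of LNCOC1, which is not protein-coding, 110 bp from the nearest start of that gene.

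Further members of this class were less well annotated or farther from a start. Near FOXN2, a forkhead factor gene whose start is 203262 bp away, a peak lay 16 bp from the start of ENSG00000230773 (rank 40, 16 and 14.3). ENSG00000124593 had a peak 192 bp from its start, also within 1000 bp of FRS3 and PRICKLE4 (rank 52, 16.6 and 13.5). The peak near SLC17A7, a vesicular glutamate transporter gene, was 1351 bp from its start (rank 59, 13.2 and 13.8), with the core printed above 212 bp from the summit, and lay over Sp1 WT. The peak near NXPH3, a neurexophilin gene, lay in an intron of ENSG00000250310, 5784 bp from the start of NXPH3 (rank 63, 13 and 15.9), with the core 98 bp from the summit, and was not over Sp1 WT.

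The 10 strongest CTCF DBD peaks that the chimera lacked were taken by the same rule, outside control lists and repeated sequence. Of these 10, 4 were at a transcription start and 3 over Sp1 WT. The first ranked peak of the whole CTCF DBD list, chr10:101012738-101013763, was among them, with values of 33.2 and 60.6 and neither motif around the summit. It lay in an intron of PDZD7, 13367 bp from the start of LZTS2, a leucine zipper tumor suppressor candidate. TOMM6, a subunit of the mitochondrial import pore, had a peak 269 bp from its start (rank 6, 26.5 and 44), and the core lay 793 bp from that summit. COBL, an actin nucleator, had an intronic peak (rank 12, 22.8 and 23.1), and SOGA3 a peak 653 bp from its start (rank 21, 25.0 and 20.1). A peak 4318 bp from GABRR3, a GABA receptor subunit gene, held the core 137 bp from the summit (rank 28, 18.5 and 26.6).

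Most of the others among these 10 were away from protein-coding starts. FOXD2, a forkhead factor gene, had a peak 210 bp from its start and over Sp1 WT (rank 26, 19.02 and 30.4). KCNC1, a voltage-gated potassium channel gene, had one 3689 bp away (rank 27, 18.8 and 35.9). The nearest protein-coding starts to the rest were DPY19L1 at 93091 bp (rank 22, 19.6 and 23.6), BOLA3 at 25013 bp (rank 25, 19.1 and 26.0), whose peak was over Sp1 WT and 185 bp from the pseudogene FNBP1P1, and ANK1 at 30738 bp (rank 28, 19.01 and 18.5), whose peak was over Sp1 WT.

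**Figure D5:**
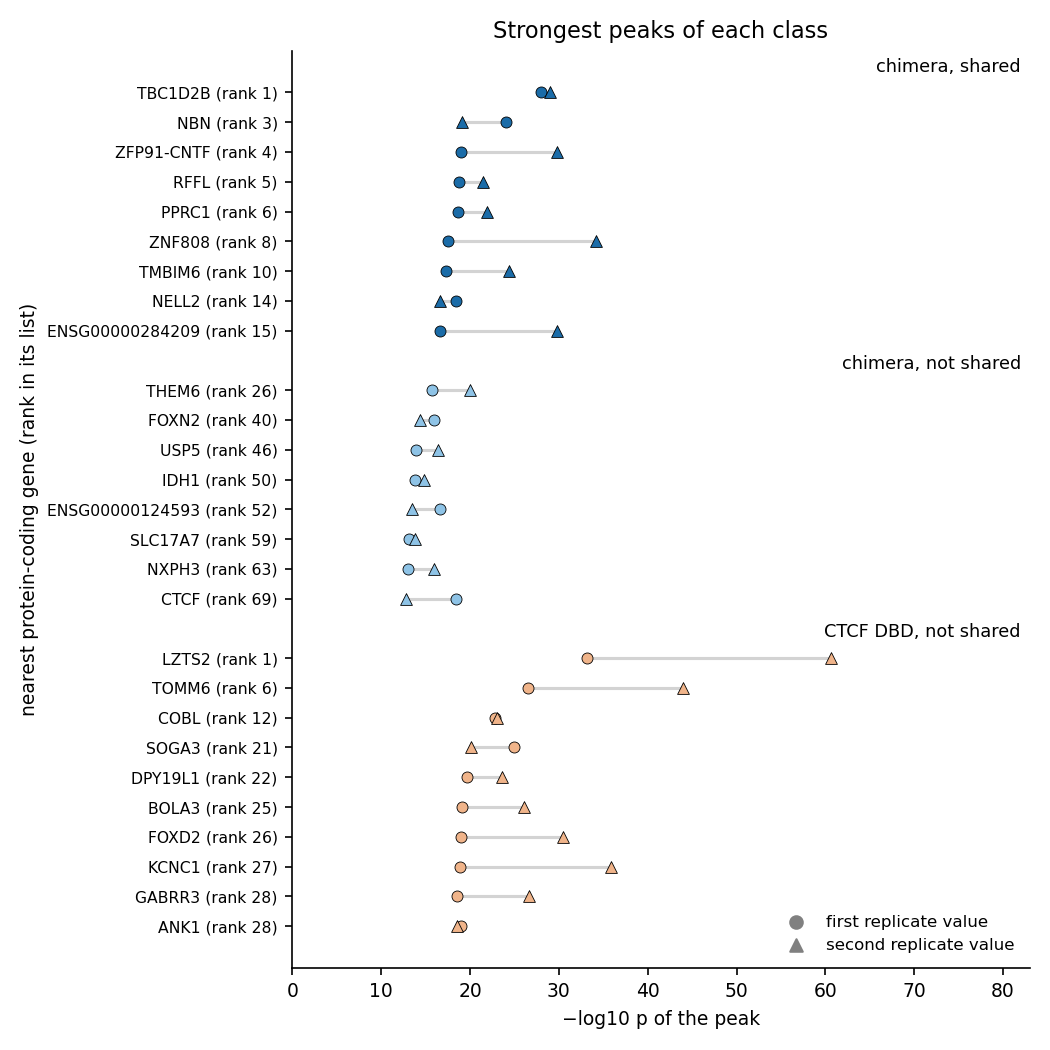
Replicate values (x axis, −log10 p, circles for the first and triangles for the second) of 9 of the 10 strongest shared chimera peaks, 8 of the 10 chimera peaks not shared and the 10 CTCF DBD peaks not shared, outside control lists and repeated sequence, by nearest protein-coding gene and rank (y axis). The chimera peaks not shared that are drawn lie at ranks 26 to 69, with the peak at CTCF at 18.4 and 12.8.

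Promoter peaks were also counted in gene groups tied to CTCF or Sp1, beside the share over all protein-coding genes. Within 1000 bp of a summit lay a start of 108 of 20046 protein-coding genes for the chimera (0.539%) and of 359 for the CTCF DBD (1.79%), and 81 genes were in both, which is 75% of the first and 22.6% of the second. Of 14 genes for CTCF, cohesin and its regulators, only CTCF had a chimera peak, and none a CTCF DBD peak. Of 76 genes at loci known for CTCF (H19, IGF2, HBB, the clustered protocadherins, HOXA and HOXD), none had a chimera peak and HOXA9, a homeobox gene, had a CTCF DBD peak (rank 416, 9.25 and 20.7). The summit nearest to an H19 start was 396016 bp away in the chimera list and 396081 bp in the CTCF DBD list. None of 10 genes long used as Sp1 targets had a peak in either list, and of 27 SP and KLF factors only KLF7 did, in the CTCF DBD list (rank 596, 7.63 and 16.4). With groups of this size, counts of 0 or 1 are near the shares over all genes and are no result about the groups.

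Ribosomal, zinc finger and histone genes gave small counts. Over all protein-coding genes the share with a peak was 0.539% for the chimera and 1.79% for the CTCF DBD. No group was tested against these shares. Cytosolic ribosomal protein genes had 0 of 92 with a chimera peak and 4 with a CTCF DBD peak (RPL3, RPL36AL, RPL39L and RPL5, at ranks 72 to 617), and mitochondrial ones 0 of 78 and 5 (MRPL34, MRPL58, MRPS12, MRPS2 and MRPS30, at ranks 300 to 618). Of 515 ZNF genes, ZNF219 and ZNF808 had a peak of both constructs, and ZNF131, ZNF146, ZNF25, ZNF256 and ZNF565 of the CTCF DBD only. ZNF219 had values of 14.1 and 19.7 in the chimera and 10.7 and 19.4 in the CTCF DBD list. Of 74 histone genes, H4C15 had a peak of both (11.8 and 12.9, and 14.3 and 37.2) and H4C14 of the CTCF DBD (11.9 and 22.2), all in repeated sequence, so which of these near-identical copies was bound is uncertain. RPL36AL shares its peak with MGAT2, MRPL34 one of its peaks with ABHD8, and MRPS12, MRPS2 and ZNF146 theirs with SARS2, PIERCE1 and ZNF565, whose starts lie within the same 1000 bp.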

How the data were processed

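CUT&RUN libraries of 2 replicates per line were processed by the authors. Adapters were cut with cutadapt 2.6, Bowtie2 2.3.5.1 was used for alignment (hg38), SAMtools 1.9 for removal of duplicates, and peaks were called with MACS3 (given as 2.2.7.1) at a p of 0.001 without local lambda, against merged control replicates. IDR was run on the replicates, and peaks of at most 0.1 were deposited. The deposited −log10 p-values of the merged peak and of each replicate were used as given. The merged value is the smaller of the replicate values, and the labels do not say which replicate is given first. The deposited global IDR score (its −log10) set the stricter threshold. Summit positions were deposited as offsets. The 6 deposited tables of differential regions hold log10 likelihood ratios from the authors' own comparisons and were not used.

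Overlap meant at least 1 bp, and the numbers were checked with bedtools 2.31.1 against 18 lists for each construct, with a different number in 0. Starts and exons came from GENCODE 44, and sequences from hg38. Shares have 95% Wilson intervals and 6 of them entered Fisher's exact tests, two-sided (SciPy 1.17.1), shared against other CTCF DBD peaks and chimera against CTCF DBD peaks not shared, with the test of rank groups making 13, adjusted by Benjamini-Hochberg, threshold 0.05. Widths, ranks and distances are descriptions. Peaks of 1 list share libraries and are not replicates. Members, lists and tests were chosen with earlier results of these data known. Named genes are those nearest to the 10 peaks of each class with the highest merged value outside control lists and repeated sequence, and members of the gene lists with a peak. Some of what this rule names is left out of the text and the plot. The code was tested on simulated data. Other software was Python 3.11.15, NumPy 2.4.6, pandas 2.3.3, pysam 0.24.0 and matplotlib 3.10.9.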

Additional observations from a re-analysis of the deposited data

How the results depend on the processing

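No paired analysis was possible because each list was made from both replicates and has no replicates of its own, and for the same reason no replicate could be left out. Of 105 odds ratios and shares recomputed under an alternative, 78 kept their direction and their side of the threshold or, for the shares of the lists, stayed inside the interval given. Of these 78, 15 came from asking for an overlap of 50% of the shorter peak, which changed no value. A difference that was not past the threshold and stayed so also counts as kept. The difference between rank groups was kept under all 7 alternatives that apply to it, which include ranking by either replicate value alone. At an IDR threshold of 0.05, 14.5% of 440 CTCF DBD peaks were shared, the odds ratios over Sp1 WT fell to the other side of the threshold at 1.88 (shared against other CTCF DBD peaks) and 2.68 (chimera against CTCF DBD, not shared), as did that over the controls (3.21), and starts turned to 0.975. With lists of equal length, 36.7% of either list was shared, Sp1 WT gave 1.05 and 1.96 and the controls 3.19, none past it, and among CTCF DBD peaks the core (0.567) and the GC box (0.647) turned direction. On chromosomes 1 to 22 and X the Sp1 WT ratios were 1.70 and 2.41 and the control ratio 3.47, all past it no longer. Without control peaks, shared against other CTCF DBD peaks gave 1.68 over Sp1 WT (Fisher's exact adjusted p = 0.0500428) and 1.91 at starts, now past it, as was the GC box among peaks not shared (2.46). Without repeated sequence these were 1.70 over Sp1 WT, lost, and 1.97 at starts, gained, while the control ratios became 0.0 and 13.9, neither past the threshold. At 5000 bp to a start, the ratio of peaks not shared turned to 0.995. Other motif forms moved core ratios past the threshold: 12.2 within 50 bp, 1.82 for the 7-letter part, and 2.27 with 11 of 12 letters, added after seeing the data and found in 3.76% of promoter windows. So did the limit of 90% on repeated words (2.83). The core anywhere in the peak gave 1.41 and 1.17, neither past the threshold. Where no cause is named, the cause was not tested. The 47 chimera peaks not shared limit every comparison that uses them, and an unlisted site may lie just under the threshold. The depth is unknown, so no limit from depth can be given.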

Other observations

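Some chimera peaks outside the named set stood apart in value. A shared peak in repeated sequence at chr17:43251621-43252379, 273 bp from the start of a gene annotated as U2, a spliceosomal RNA present in tandem copies, had the highest replicate value of the list, 56.5 in the first replicate and 16.3 in the second, and ranked 20. The second ranked chimera peak, chr10:41447178-41447332, was not shared and had values of 21.03 and 24.1, with 100% of its words repeated. The peak at chr18:96832-97760, also not shared and repeated, held 11 cores (22.4 and 12.2).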
